A study of Homo sapiens with 3 samples.

Results

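The genes described here are the core and linker histone genes of chromosomes 1 and 6, the 68 members among 20033 protein-coding genes of GENCODE release 44 whose symbols start with H1-, H2AC, H2BC, H3C or H4C. Each member was given the ZBTB11 peak with the smallest p-value within 1 kb of any of its transcript starts. The study mapped ZBTB11, a zinc finger protein with a BTB domain, on chromatin by ChIP-seq to ask whether it acts as a transcription factor. The cells were NCI-H1299, an established human lung cancer line labelled as lung adenocarcinoma and as wild type in genotype, not treated and fixed with formaldehyde. The study describes H1299 as p53-null, so wild type is the term of the label only. The 3 libraries were an immunoprecipitation with a ZBTB11 antibody, an immunoprecipitation with normal IgG, and an Input that was not analysed here. Each antibody has 1 library, so no value has a replicate check, no test between conditions could be made, and the 95% Wilson intervals given with shares cover counting error only.

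Histones package DNA into nucleosomes. An octamer of H2A, H2B, H3 and H4 forms the core, and H1 binds the linker DNA between cores. The replication-dependent genes lie in clusters, are short and lack introns in their main transcripts, and are transcribed mostly in S phase into mRNAs that end in a stem-loop in place of a poly(A) tail. Many H2A and H2B genes sit head to head and share 1 promoter region. H1-6 encodes H1t, the linker histone of male germ cells, and H2AC1 and H2BC1 encode testis forms of H2A and H2B.

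The ZBTB11 list held 346891 peaks on 24 chromosomes, with a median of 5 fragments at the summit, and 26747 of them reached a q-value of at most 0.05. The IgG list held 26712 peaks on 4 chromosomes, of which chromosome 1 carries members and chromosome 6 does not appear, so the chromosome 6 genes have no control here. The number of fragments at a summit was worked out from the deposited fold and p-value of each peak. Of the 68 genes, 55 lie in 1 cluster of 2.17 Mb on chromosome 6 (chr6:25723397-27893891, hg38), 11 in a cluster of 0.105 Mb on chromosome 1 (chr1:149782689-149887965) and 2, H2AC25 and H2BC26, in a pair farther along chromosome 1 (chr1:228434777-228463104). The members comprise 6 H1, 17 H2A, 18 H2B, 13 H3 and 14 H4 genes.

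The DNA under the summits that the results turn on is shown first. These are the hg38 bases within 50 bp of each summit, for H2AC15, H3C15 and H3C14, which are 3 of the 4 members with 50 fragments or more, for both H4 genes of chromosome 1, and for the pair H2BC12 and H2AC12, which share 1 peak. Capitals mark a match on either strand to CCGGAAG or CAGGAAG, the consensus that the study put forward for ZBTB11.
H2AC15, chr6:27837008-27837108, plus strand: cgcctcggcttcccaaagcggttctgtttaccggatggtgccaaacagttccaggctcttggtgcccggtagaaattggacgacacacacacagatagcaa
H3C15, chr1:149853213-149853313, plus strand: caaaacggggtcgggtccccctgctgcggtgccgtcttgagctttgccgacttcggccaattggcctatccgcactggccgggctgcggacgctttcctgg
H3C14, chr1:149840549-149840649, plus strand: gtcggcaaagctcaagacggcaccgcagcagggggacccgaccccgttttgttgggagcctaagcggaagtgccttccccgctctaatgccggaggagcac
H4C15, chr1:149861332-149861432, plus strand: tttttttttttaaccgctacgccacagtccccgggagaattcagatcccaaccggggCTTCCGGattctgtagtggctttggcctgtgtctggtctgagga
H4C14, chr1:149832313-149832413, plus strand: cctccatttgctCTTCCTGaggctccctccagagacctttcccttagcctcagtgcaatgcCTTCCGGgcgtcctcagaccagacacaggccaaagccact
H2BC12 and H2AC12, chr6:27146083-27146183, plus strand: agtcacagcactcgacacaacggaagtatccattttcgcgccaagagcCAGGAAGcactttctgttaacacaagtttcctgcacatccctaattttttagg

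The summits of H2AC15, H3C15 and H3C14 carried no consensus match, whereas the windows of H4C14, H4C15 and the H2BC12 and H2AC12 pair did. The windows of H3C14 and H3C15 shared a run of 51 bases on opposite strands, and those of H4C14 and H4C15 shared 30 bases on opposite strands. On chromosome 1, H4C14, H3C14 and H2AC18 mirror H4C15, H3C15 and H2AC19, in reverse order and on opposite strands. Every 31-base word of all 4 windows occurred in exactly 2 copies in hg38, so reads from 1 copy can be placed on the other, and the values of H3C14 with H3C15, and of H4C14 with H4C15, are not independent of each other. The summit windows of H2AC15 and of the H2BC12 and H2AC12 pair held only words that occurred once.

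Most histone genes had a ZBTB11 peak, with a median −log10 p below that of all protein-coding genes with a peak. Of the 68 genes, 52 (76.5%, 95% interval 65.1 to 85.0) had a peak within 1 kb of a start, beside 77.6% of all protein-coding genes. A peak with a q-value of 0.05 or less lay at 31 members (45.6%, 34.3 to 57.3), against 52.0% of all protein-coding genes. A p-value of 1e-05 or less was reached at 23 members (33.8%), against 44.8%. Among genes with a peak, the median −log10 p was 4.31 for histone genes, over a range from 1.87 to 121, and 6.53 for all protein-coding genes. The median number of fragments at the summit was 12 in both sets, and the median fold over local background was 3.07 against 4.18. Only 6 histone genes (8.82%) had a peak among the 5000 with the largest −log10 p, compared with 22.7% of all protein-coding genes.

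The 52 genes were served by 39 distinct peaks, 24 of them with a q-value of 0.05 or less. While 27 peaks were given to 1 gene each, 11 were given to 2 genes and 1 to 3 genes (H2AC20, H2AC21 and H2BC21), so 25 members share a peak and are not separate measurements. At 6 of the 39 peaks, the start nearest to the summit was that of a gene outside the set. Among these genes were the histone pseudogenes H2AC5P and H2AC10P. The peak of H2AC7 and H2BC7 counts among the 6 by a tie, with the start of H2AC7 also 616 bp away. The peak of H2AC20, H2AC21 and H2BC21 was another of the 6, with its summit 14 bp from a start of BOLA1. In 9 of the 52 genes (17.3%), the summit lay within 100 bp of a start of the gene, against 37.2% of all protein-coding genes with a peak. The median distance from the summit to the gene's own nearest start was 354 bp and 173 bp, respectively. When only peaks of 5 to 20 fragments were compared, 14% of 43 histone genes and 30.0% of 8763 protein-coding genes had the summit that close.

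Relative to the shortest coding transcript of each gene, the summit lay upstream of the start in 20 genes and in the 5′ UTR in 2. It lay in the coding exon in 16 genes, in the 3′ UTR in 1 and past the 3′ end in 13. A shared peak was counted for each of its genes and could fall in different classes. The peak of H2BC12 and H2AC12, for example, was past the 3′ end of the former and upstream of the latter. The classes are therefore not separate sets of peaks. Histone genes are so short that a window of 1 kb reaches past their 3′ ends. Of the 13 genes with the summit past the 3′ end, 11 had a q-value of 0.05 or less, with a median −log10 p of 6.53. Of the 16 with the summit in the coding exon, 6 did, with a median of 3.76, and of the 20 upstream, 12 did, with a median of 4.42.

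**Figure D1:**
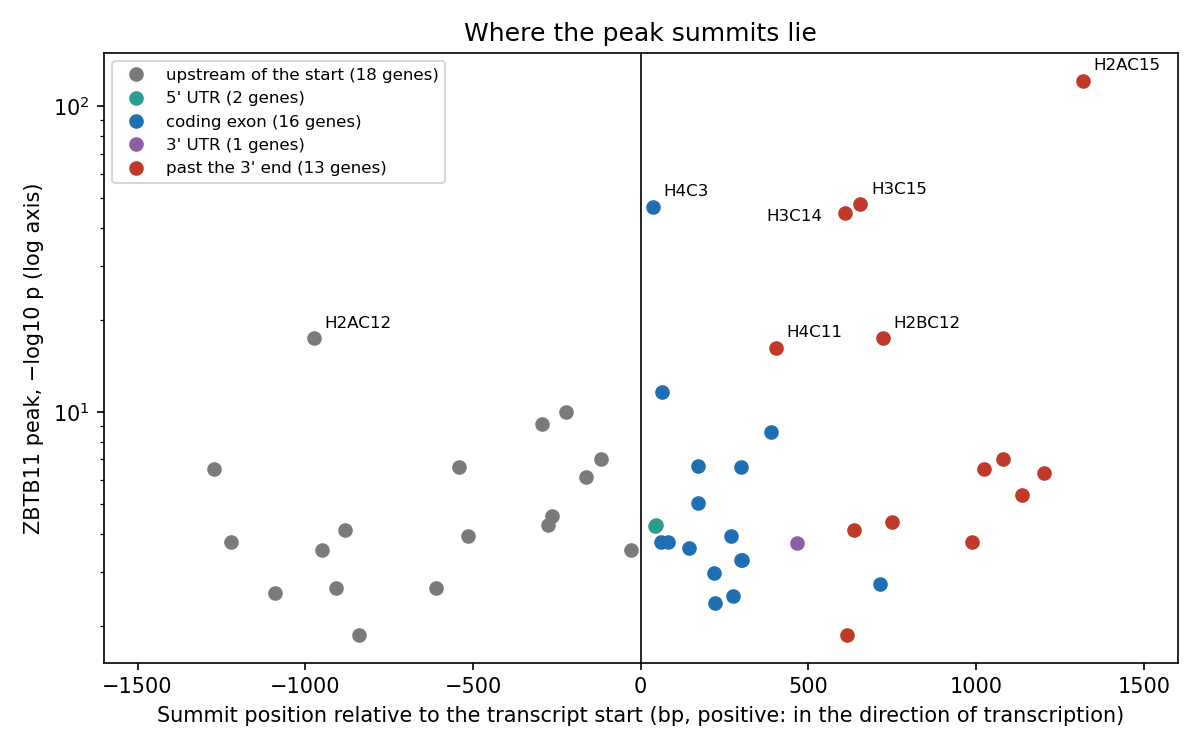
Position of the ZBTB11 summit relative to the start of the shortest coding transcript (x axis, bp, positive in the direction of transcription) and −log10 p of the peak (y axis, log scale), with 1 point per histone gene coloured by where the summit lies. H2AC15, H3C14 and H3C15 lie to the right with summits past the 3′ end, H4C3 sits beside its start, and H2BC6 and H3C12, with summits over 2 kb away, are not drawn.

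H2AC15, a core H2A gene, had the strongest peak of all members, with 143 fragments over a background of 8.28, a −log10 p of 121.11 and rank 991 in the whole list. This was the single member peak among the 1000 strongest. It spanned chr6:27836718-27837402, began 478 bp beyond the 3′ end of the gene, and had its summit 1317 bp from the start. With its edge 973 bp from the start of H2AC15, it was just inside the window. H2BC15, the head-to-head partner of H2AC15, lay just outside at 1143 bp and therefore counts as a gene without a peak.

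H3C15, H4C3 and H3C14 followed in −log10 p. H3C15 and H3C14, which encode the same H3 protein on chromosome 1, had 69 and 67 fragments over backgrounds of 6.06 and 6.30. Their −log10 p values were 47.88 and 44.75, and their summits lay 138 and 88 bp past the 3′ end. H2AC19 and H2AC18, the H2A genes beside them, were 1679 and 1602 bp from these same peaks and had none of their own within 1 kb. H4C3, an H4 gene of chromosome 6, had 56 fragments over a background of 3.53 and a −log10 p of 46.86, with the summit in the coding exon, 37 bp from the start. Of the 4 members with 50 fragments or more, H4C3 was the only one with its summit at a start.

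A further 5 members had from 20 to 50 fragments. H2BC12 and H2AC12, a head-to-head pair, shared a peak of 32 fragments and a −log10 p of 17.45, with the summit on the far side of H2BC12, 722 bp from its start. H4C11 had 26 fragments and a −log10 p of 16.25 with the summit 404 bp from its start, just past the 3′ end. H2BC6 had 25 fragments and a −log10 p of 15.39 at a start annotated 11702 bp upstream of the start of its short coding transcript, with the summit 31 bp from that distant start. H1-2, a linker histone gene of somatic cells, had 22 fragments and a −log10 p of 11.65, with the summit in the coding exon 62 bp from the start.

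By histone type, H4 genes either had a peak with a q-value of 0.05 or less or no peak at all. Of the 14 H4 genes, 9 (64.3%, 38.8 to 83.7) had such a peak, with a median −log10 p of 7.02 and a smallest value of 4.36, and the 5 others (H4C2, H4C6, H4C7, H4C9 and H4C13) had none within 1 kb. In the other types, 8 of 17 H2A genes (47.1%, 26.2 to 69.0), 8 of 18 H2B genes (44.4%, 24.6 to 66.3), 4 of 13 H3 genes (30.8%, 12.7 to 57.6) and 2 of 6 H1 genes (33.3%, 9.68 to 70.0) reached that q-value. These 5 intervals overlap. The median −log10 p of the genes with a peak was 4.26 for H2A, 4.12 for H2B, 3.55 for H3 and 4.0 for H1.

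**Figure D2:**
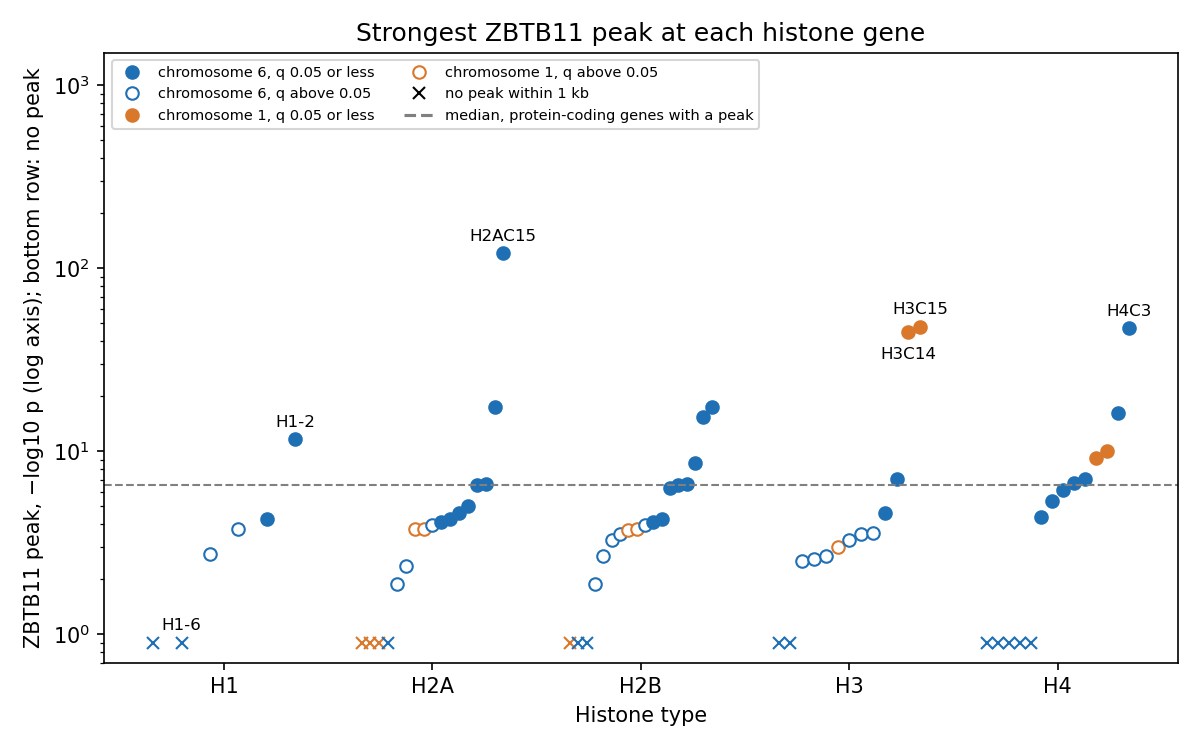
−log10 p (y axis, log scale) of the strongest ZBTB11 peak within 1 kb of each histone gene, by histone type (x axis); blue marks chromosome 6, orange chromosome 1, filled circles a q-value of 0.05 or less, and crosses in the bottom row the 16 genes without a peak. All 9 H4 circles are filled, while the other types mix filled and open circles, and the dashed line is the median of 6.53 of all protein-coding genes with a peak.

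Among the H4 genes, H4C3 and H4C11 were followed by H4C15 and H4C14 on chromosome 1, with 18 and 17 fragments and −log10 p values of 10.04 and 9.13. H4C1 reached 7.02 with 15 fragments, in a peak 118 bp upstream of its start at the summit. That peak was also given to H3C1, whose start was 1080 bp from the summit. H4C12 reached 6.68, H4C8 6.14, H4C5 5.36 and H4C4 4.36, the last with 9 fragments.

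Among the H3 genes, the pair on chromosome 1 was far above the rest. On chromosome 6, 8 of 10 H3 genes had a peak and 2 of them, H3C1 at 7.02 and H3C12 at 4.58, had a q-value of 0.05 or less. H3C12 had its peak at a start 2280 bp upstream of its short coding transcript, near the start of H2BC17, and shared the peak with H2AC17. The smallest values were those of H3C2 at 2.50 and H3C3 at 2.57, besides H3C6 and H3C11 without a peak.

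Among the H2A and H2B genes, many values came in pairs because both genes of a head-to-head pair took the same peak. H2BC13 with H2AC13 had a −log10 p of 6.63 with 16 fragments, and H2BC11 with H2AC11 had 6.53 with 18. H2BC8 with H2AC8 had 4.26 with 11 fragments, and H2BC4 with H2AC6 had 4.12 with 11. Of the genes with a peak of their own, H2BC5 had 8.62 with 19 fragments and its summit in the coding exon, H2BC17 had 6.33 with 17 fragments past the 3′ end, and H2AC16 had 5.04 with 13 fragments. The smallest values were 1.87 with 7 fragments for H2AC7 and H2BC7 in a shared peak, and 2.37 for H2AC4.

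The 6 linker histone genes, all on chromosome 6, split between 4 with and 2 without a peak. H1-2 at 11.65 and H1-3 at 4.25, with 22 and 10 fragments, had a q-value of 0.05 or less. H1-4 at 3.75 with 12 fragments and H1-5 at 2.75 with 9 fragments did not. The summits of H1-2, H1-3 and H1-4 lay 62, 42 and 82 bp from the start, a closeness that 3 of 4 H1 genes (75.0%) and no more than 22.2% of the genes of any other type had. H1-1 had no peak within 1 kb, and the nearest was 2777 bp away with 7 fragments.

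H1-6, the germline linker histone gene, had no ZBTB11 peak within 1 kb. The nearest peak was 2074 bp from its start and weak, with 6 fragments and a −log10 p of 2.62. The strong peak of H4C3 ended 3876 bp from the start of H1-6. The other germline genes, H2AC1 and H2BC1, also had no peak, and their nearest was 3646 and 3863 bp away, a single peak of 6 fragments with a −log10 p of 2.62. Thus 0 of 3 germline genes had a peak (95% interval up to 56.1%). Of the 67 genes other than H1-6, which still include H2AC1 and H2BC1, 52 (77.6%, 66.3 to 85.9) had one. These groups overlap, and H2AC1 and H2BC1 lie head to head, so the 3 germline genes are not separate cases. No difference was tested.

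The promoters of H1-6, of H1-2 and of the H2BC12 and H2AC12 pair show the elements that mark histone genes. These are the 250 bases before the RefSeq start in GRCh38.p14, and capitals mark the CCAAT box, the TATA box as TATAAA, or the octamer ATGCAAAT, each on either strand.
H1-6, chr6:26108136-26108385, minus strand: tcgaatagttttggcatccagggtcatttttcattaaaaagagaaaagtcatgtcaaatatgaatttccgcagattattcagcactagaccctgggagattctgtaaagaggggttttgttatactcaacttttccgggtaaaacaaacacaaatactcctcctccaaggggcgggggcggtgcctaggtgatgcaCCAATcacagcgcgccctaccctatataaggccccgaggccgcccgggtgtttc
H1-2, chr6:26056471-26056720, minus strand: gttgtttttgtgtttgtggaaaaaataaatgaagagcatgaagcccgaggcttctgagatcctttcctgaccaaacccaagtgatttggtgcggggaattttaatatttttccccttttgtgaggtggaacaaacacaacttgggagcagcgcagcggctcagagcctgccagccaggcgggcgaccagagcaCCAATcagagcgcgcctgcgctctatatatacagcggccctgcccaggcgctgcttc
H2BC12, chr6:27146856-27147105, minus strand: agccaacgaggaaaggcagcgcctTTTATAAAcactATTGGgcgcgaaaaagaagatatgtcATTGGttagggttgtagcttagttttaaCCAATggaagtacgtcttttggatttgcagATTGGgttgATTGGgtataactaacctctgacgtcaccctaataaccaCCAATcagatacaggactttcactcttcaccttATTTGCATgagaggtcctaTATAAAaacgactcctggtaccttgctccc

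Both H1 promoters held a single CCAAT, which began 54 and 57 bases before the start, no TATAAA and no octamer. Only the exact word TATAAA was searched, so similar runs, such as tatataa in H1-6 and tatatata in H1-2, were neither marked nor counted. That of H2BC12 held CCAAT on both strands, TATAAA on both strands, with overlapping matches at its far end, and 1 octamer. RefSeq promoters, from 250 bases before to 50 after the start, were matched for 63 of the 68 members. In these, TATAAA was found in 65.1% (12% of all 27305 promoters), CCAAT in 85.7% (35.7%) and the octamer in 39.7% (1.80%). CCAAT was present in 100% of H1, H2A, H2B and H3 promoters and in 25% of the 12 H4 promoters. The octamer, which POU2F1 binds in H2B promoters, was found in 77.8% of H2B and 68.8% of H2A promoters and in none of H1, H3 or H4. Members with a peak held the octamer in 47.9% of 48 promoters, and members without one in 13.3% of 15. Among H2A and H2B genes alone, a comparison chosen after these shares were seen, they were 85.2% of 27 and 28.6% of 7. Genes of a head-to-head pair share promoter DNA and often a peak, so these genes are not independent, and neither share was tested.

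The ZBTB11 consensus was searched in the same promoters and at the summits. It was found in 11.1% of histone promoters, against 22.2% of all promoters and 25.3% of protein-coding ones. The median GC content was 44% in histone promoters and 58.3% in all promoters, and its part in this difference was not tested. Among members, the consensus was found in 8.33% of 48 promoters with a peak and in 20% of 15 without one, also not tested. Within 50 bp of the summit, 5 of the 39 histone gene peaks (12.8%, 5.60 to 26.7) held a match, and 0 of the 78 windows placed 500 bp to either side did (up to 4.69%). In the 13740 peaks of other protein-coding genes, these shares were 15.9% and 4.27%. Restricted to a q-value of 0.05 or less, 5 of 24 histone gene peaks (20.8%) and 21.9% of 8838 others held it, a difference well within the interval of the histone genes (9.24 to 40.5). The 5 peaks were those of H4C14, which held 2 matches, H4C15, H2BC5, the H2BC12 and H2AC12 pair, and the H2BC13 and H2AC13 pair. They are not independent cases, although the intervals count them as such. The windows of H4C14 and H4C15 occur in 2 copies. The matches at H2BC5 and H2BC13, with summits in the coding exons, lay in the same run of bases on opposite strands. No match lay at the summits of H2AC15, H3C14, H3C15, H4C3, H4C11, H2BC6 or H1-2.

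The shares of genes with a peak on the 2 chromosomes had overlapping intervals. On chromosome 6, 43 of 55 members (78.2%, 65.6 to 87.1) had a peak, beside 80.9% of the protein-coding genes of that chromosome, in 32 distinct peaks with a median −log10 p of 4.36 over genes. On chromosome 1, 9 of 13 members (69.2%, 42.4 to 87.3) had one, beside 75.6% of its protein-coding genes, in 7 distinct peaks with a median of 3.77. The order of these medians turned when each distinct peak was counted once, with 4.47 on chromosome 6 and 9.13 on chromosome 1. A q-value of 0.05 or less was reached by 27 genes on chromosome 6 (49.1%, 36.4 to 61.9, beside 55.0% of its protein-coding genes) and by 4 on chromosome 1 (30.8%, 12.7 to 57.6, beside 49.9%). Those 4 were H3C14, H3C15, H4C14 and H4C15, whose summit windows occur in exactly 2 copies each. The windows of H2BC18 on chromosome 1 and of H2AC14, H2BC14 and H4C12 on chromosome 6 also held no word that occurs once, with 2 to 3 copies of each. Of the 13 promoters on chromosome 1, 8 had most of their 31-base words repeated in the genome, compared with 2 on chromosome 6 (H4C11 and H4C12).

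IgG too gave peaks at most of the chromosome 1 histone genes. Of the 13 genes, 10 had an IgG peak within 1 kb, beside 49.2% of the protein-coding genes of chromosome 1. An IgG q-value of 0.05 or less was reached at H3C14 alone, beside 1.89% of the protein-coding genes of chromosome 1. Both antibodies had a peak at 6 genes, IgG alone at 4 (H2AC18, H2AC19, H2AC25 and H2BC26) and ZBTB11 alone at 3 (H2BC18, H3C13 and H2AC21). The ZBTB11 peak itself overlapped an IgG peak at H3C14, H3C15, H4C14 and H4C15, the same 4 genes that reached the q-value with ZBTB11.

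At these 4 genes, ZBTB11 had more fragments than IgG. H3C14 had 67 fragments with ZBTB11 and 13 with IgG, and H3C15 had 69 and 10. H4C14 had 17 and 6, and H4C15 had 18 and 7. The gap in fragments was thus wide at the H3 genes and smaller at the H4 genes. As fold over local background, for ZBTB11 and IgG, the values were 9.32 and 3.62 at H3C14 and 9.91 and 2.75 at H3C15. At H4C14 they were 4.85 and 2.4, and at H4C15 5.16 and 2.49. The local backgrounds were 6.30 and 2.87 at H3C14 and 6.06 and 3.0 at H3C15, for ZBTB11 and IgG, and the genome-wide backgrounds of the libraries were 1.35 and 1.55. At H2BC21 and H2AC20, the 10 ZBTB11 fragments and the 8 IgG fragments lay in different peaks. H2AC18 and H2AC19 had 8 IgG fragments each, and H2AC25 and H2BC26 shared an IgG peak of 5. How much of the ZBTB11 signal at the repeated genes comes from places that IgG also collects was not tested.

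**Figure D3:**
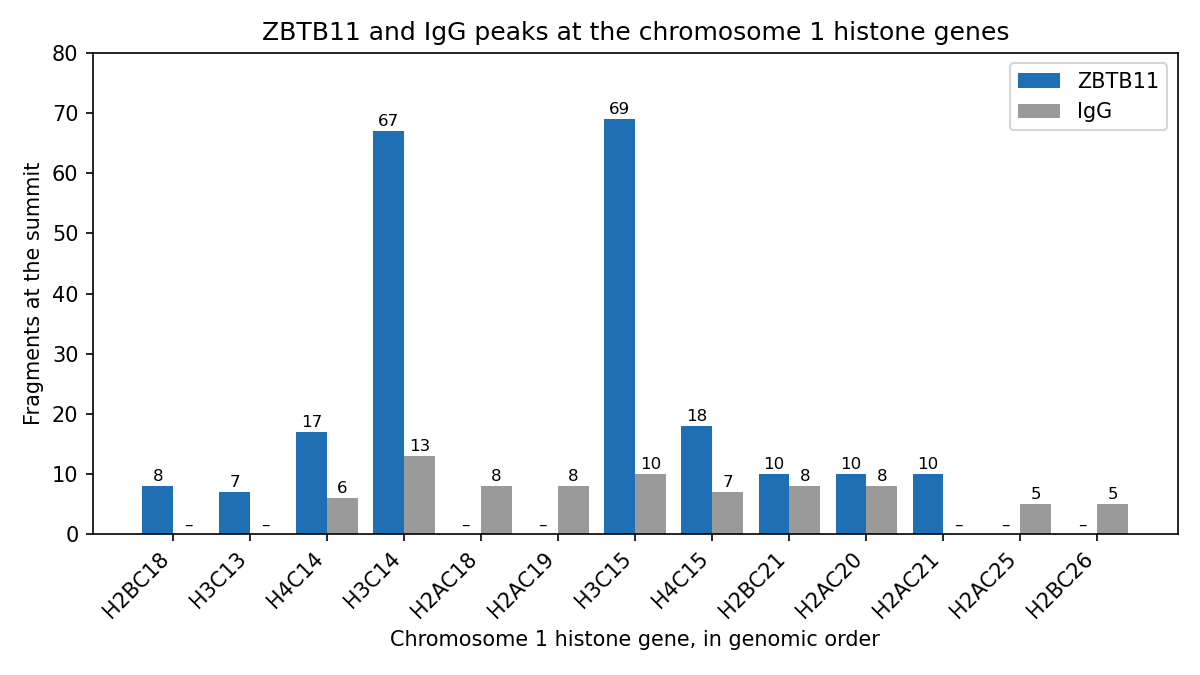
Fragments at the summit (y axis) of the strongest peak within 1 kb of each of the 13 chromosome 1 histone genes (x axis, genomic order), with ZBTB11 in blue and IgG in grey; a dash means that no peak was listed. H3C14 and H3C15 stand out at 67 and 69 ZBTB11 fragments, with 13 and 10 for IgG, and no other gene exceeds 18.

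The lists of genes that make, process and carry histones had larger median −log10 p values than the histone genes, although the values of single genes overlapped, and the lists were described without a test. All their counts at a q-value of 0.05 or less stand beside the 52.0% of all protein-coding genes that reached it. In the list for histone transcription and mRNA processing, all 13 genes (100%) reached that q-value, with a median −log10 p of 17.1. ERI1, a 3′ exonuclease that trims histone mRNA, reached 275.61, CSTF2, a cleavage stimulation factor subunit, 264.19, and CPSF3, the endonuclease of 3′ end cleavage, 152.65. HINFP, an activator of H4 genes, was the lowest at 4.34. NPAT, the coactivator of the clusters, had 11.47 and SLBP, the stem-loop binding protein, 18.7. Of 13 histone chaperone genes, 11 (84.6%) did, with a median of 37.4. HIRA, a chaperone of H3.3, reached 335.79, DAXX, another, 173.3, and SSRP1, a subunit of FACT, 123.89, and ATRX was the lowest at 2.57. The summit lay 763 bp from the nearest start of HIRA, against 85 bp for DAXX and 45 bp for SSRP1.

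Of 11 histone genes outside these clusters, mostly variants, 9 had a peak and 8 (72.7%) a q-value of 0.05 or less, with a median of 7.30. H3-3B, which encodes H3.3, reached 32.9, CENPA, the centromere H3, 12.03, and H2AX 9.66, whereas H2AJ and H2AZ1 had no peak. Inside the clusters, 20 of 23 neighbouring protein-coding genes without a histone gene symbol had a peak, 9 (39.1%) with a q-value of 0.05 or less, and the median was 3.05. Among the 20, ENSG00000282988 took the peak already given to H2AC7 and H2BC7, with a −log10 p of 1.87. The strongest peak of the neighbouring genes exceeded that of every histone gene. ZNF391, a zinc finger gene, had 449 fragments and a −log10 p of 413.64, HMGN4, a nucleosome binding protein gene, 115.63, and POM121L2 50.53, while BTN1A1, BTN3A2 and SLC17A1 had none. Of 13 histone pseudogenes in the clusters, 9 had a peak, with a median of 3.29. The 3 that reached a q-value of 0.05 or less (23.1%) took peaks already given to members: H4C10P that of H2BC13 and H2AC13, H2BC16P that of H2AC16, and H2AC9P that of H1-3.

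**Figure D4:**
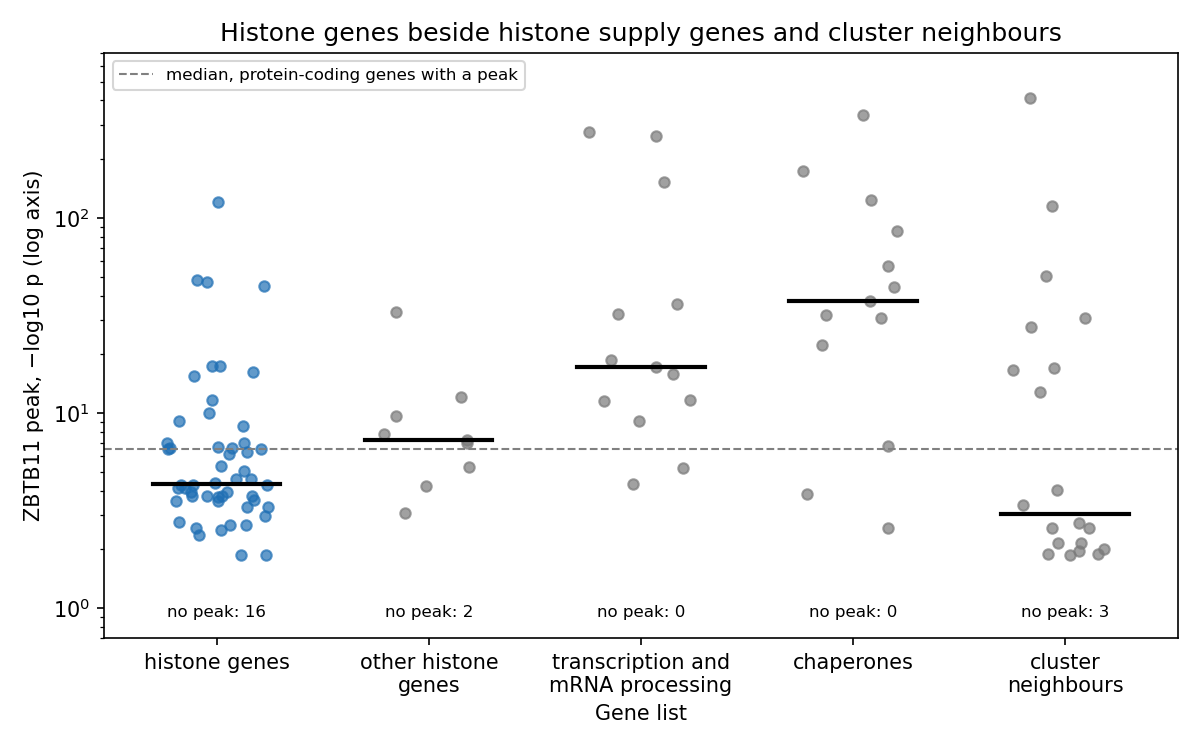
−log10 p (y axis, log scale) of the strongest ZBTB11 peak within 1 kb, with 1 point per gene, for the 68 histone genes (blue) and for 4 other gene lists (grey, x axis); bars are medians of genes with a peak, the dashed line is the median of all protein-coding genes with a peak (6.53), and the count without a peak stands at the bottom. The median is 4.31 for histone genes, 7.30 for other histone genes, 17.1 for transcription and mRNA processing, 37.4 for chaperones and 3.05 for cluster neighbours.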

How the data were processed

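The data are ChIP-seq of NCI-H1299 cells, with 1 library each for ZBTB11, IgG and Input. Per the methods and the processing notes of the submitters, BWA was the aligner and hg38 the build, and MACS was run on each antibody by itself with a p-value limit of 0.05. The layout of the files is that of later MACS releases, so the release is not certain. The fold enrichment that the authors deposited is a ratio of the summit to the local background, their significance was deposited as −log10 p and −log10 q, and the deposited score was not used. Total read depth is not given in the files. From fold and p, the fragments at each summit were solved for a Poisson background with a pseudocount of 1. This reached a tolerance of 0.001 for 100% of peaks, and recovered 100% of 3000 simulated peaks.

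Genes were those of GENCODE release 44. The peak with the largest −log10 p within 1000 bp of any transcript start was taken. Copies were counted as exact 31-base words on both strands. Motifs were searched on both strands within 50 bp of the summit. Where RefSeq lists several promoters for a member, the one nearest the start of its shortest coding transcript was used. Python 3.11.15, numpy 2.4.6, pandas 2.3.3, scipy 1.17.1 and pysam 0.24.0 were used. Alternatives changed the window, the starts, the threshold, the counting of shared peaks and the motif window.

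The members, gene lists and choices were made with earlier results of these data known, and the pseudogenes were added after their values were seen. Named were all H1 members, the 3 largest and 2 smallest of each other type, the germline genes, the chromosome 1 genes with an IgG peak and the 3 largest of chromosome 1, the members without a peak, up to 20 members with a q-value of 0.05 or less, and the 3 largest and the smallest of each list. NPAT, SLBP, BOLA1, H3C13, H2BC18, H2AC21 and the members beyond that rule were named after their values were seen.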

Additional observations from a re-analysis of the deposited data

How the results depend on the processing

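Over 9 results, 57 alternatives were computed, of which 42 stayed within 1.5 times the count reported or within the interval of the value, and 15 did not. All 15 were counts, under thresholds or the demand that a peak covers the start. Keeping only a q-value of 0.05 or less gave 31 histone genes, 27 on chromosome 6, 4 on chromosome 1, 24 distinct peaks and 1 IgG gene. Keeping only a p-value of 1e-05 or less gave 23, 19, 4, 19 and 1. With the peak covering a start, the same counts were 24, 21, 3, 20 and 2. The median −log10 p of histone genes ranged from 4.25 to 5.04. That of chromosome 1 was 9.13, against 3.77, within 3 kb or with each distinct peak counted once. It counts among the 42 because the interval of this median, from 9 genes, ran from 3.73 to 44.8. So wide an interval cannot show that the chromosome 1 median is stable. The consensus share ranged from 7.69% to 20.8%. Leaving out the 10 members with repeated promoters, an alternative chosen after seeing the data, gave 44 genes with a peak and a median of 4.25. H1-6 had no value to vary: a peak came within reach only within 3 kb, with a −log10 p of 2.62 from 6 fragments. No paired analysis was possible because each antibody has 1 library. With a minimum of 3 fragments in a listed ZBTB11 peak and 4 in an IgG peak, a gene without a peak may have held fewer fragments, and counting error is wide for peaks of 5 to 20 fragments.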
